A study of Mus musculus with 2 samples.

Results

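The isthmic FGF signals and their feedback targets are 10 genes taken by symbol from the gene tables of mouse hindbrain, out of 43346 annotated gene rows. The rule takes them by name for what they are known to do, and they were proposed with earlier results of these data known. The 5 ligands are Fgf8, Fgf17, Fgf18, Fgf15 and Fgf3, and the 5 target and feedback genes are Spry1, Spry2, Spry4, Dusp6 and Etv5. All 10 symbols matched a row.

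Fibroblast growth factors (FGFs) are secreted proteins that bind receptor tyrosine kinases and, through RAS and the kinase ERK, switch on transcription in the receiving cell. At the isthmus, the constriction between midbrain and hindbrain, FGF8 and the related FGF17 and FGF18 form an organizing signal that patterns the cerebellum and the posterior midbrain, while FGF3 and FGF15 are known from the hindbrain and its neighbouring tissues. Cells that receive the signal make their own brakes, the Sprouty proteins and the ERK phosphatase DUSP6, together with ETS factors such as ETV5, so these transcripts are widely used as markers of FGF activity.

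Total RNA longer than 200 nt was sequenced from the hindbrain of B6NCrl mouse embryos at day 10.5, with both sexes pooled and no treatment or engineered allele given. There was 1 group with 2 biological replicates, a pool of 69 embryos (replicate 1) and a pool of 51 embryos (replicate 2), and a single donor identifier stands on both in the labels. The RNA input was 10 ng, spike-in RNAs were added, and the libraries held 38170078 and 36382223 gene counts. No contrast between conditions exists, so levels, isoform shares and the ratio between the pools are described without a test, and each SD rests on n = 2 pools. In whole tissue, fewer cells of a type and less RNA per cell cannot be told apart.

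Marker genes of the labelled tissue were looked up. The neuroepithelial progenitor markers were all detected (7 of 7; detection here means that neither library was under 1 TPM, length-scaled transcript abundance), as were 10 of 11 genes of the isthmus and its borders. En2, an engrailed factor of this region, was the exception at 0.40 and 0.74 TPM in replicates 1 and 2. Detection alone does not tell the hindbrain from other tissue, since 58.8% of protein-coding genes were detected. Lists of neighbouring tissues were detected as well: otic 8 of 8, head mesenchyme 7 of 7, endothelium 5 of 5 and red blood cells 5 of 5. The surface ectoderm and pharynx list had 6 of 7 and the caudal Hox list 1 of 7. Otx2, a factor of the midbrain and forebrain that was counted with the isthmus genes, was at 11.98 and 15.69 TPM. The otic vesicle gene Oc90 was at 13.16 and 45.11 TPM.

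All 10 FGF genes were detected, where 58.8% of 21474 protein-coding genes were. Mean levels ran from 1.77 TPM for Fgf3 to 39.88 TPM for Dusp6. Dusp6 lay above 69.7% and Fgf3 above 6.54% of the 13006 protein-coding genes whose mean TPM reached 1. The ligands summed to 51.08 TPM in replicate 1 and 70.75 TPM in replicate 2, and the target and feedback genes to 79.95 and 119.3 TPM. TPM is scaled to transcript length, so these levels can be compared between genes.

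**Figure D1:**
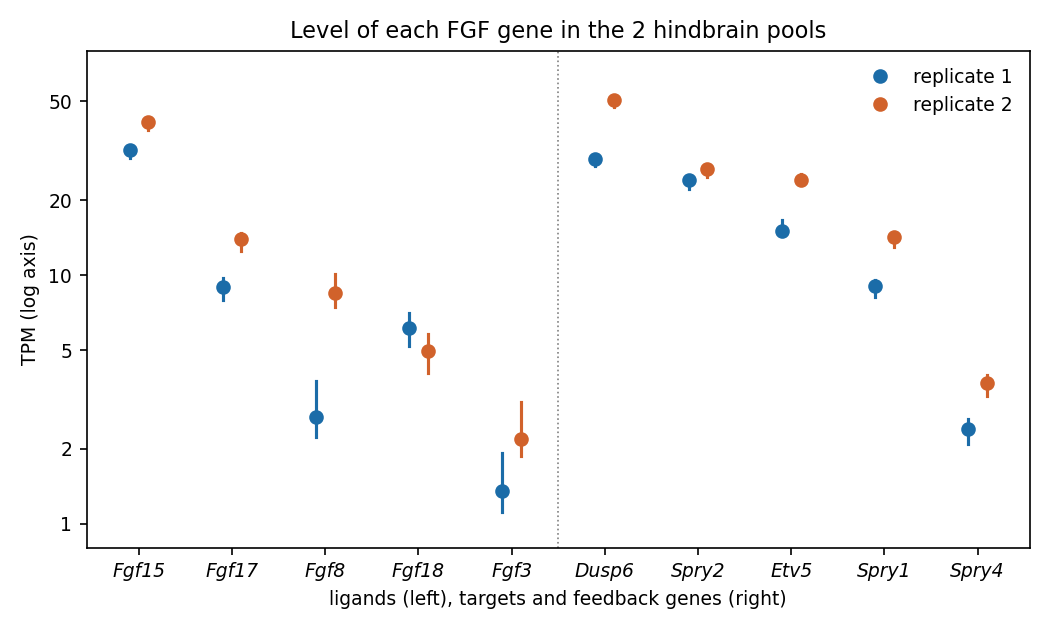
TPM of the 10 FGF genes in each library, on a log axis, with dots for the libraries and vertical lines for the interval deposited with each posterior mean. Fgf15 is the highest ligand in both libraries, and Fgf8 has the widest separation between its dots (2.70 and 8.46 TPM).

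Among the ligands, Fgf15 (ENSMUSG00000031073.5, mm10 chr7:144896531-144900953, plus strand), the mouse counterpart of human FGF19 and an endocrine-type FGF, was the most abundant. The 2 pools gave 31.89 and 41.17 TPM, or 36.53 ± 6.56 TPM (SD, n = 2). It held 62.4% and 58.2% of the summed ligand TPM, or 60.3% ± 3.0 (SD, n = 2). This share is a ratio within a library and so does not depend on how libraries are scaled to each other. An antisense gene, Gm26793, overlaps Fgf15 on the minus strand and was at 2.70 and 2.81 TPM. Whether counting used the strand is not given in the sources used here. In replicates 1 and 2 the expected counts were 1474.07 and 1706.44 for Fgf15 and 191.93 and 179.56 for Gm26793. In each library the decimal parts of the 2 genes complete each other to a whole number. Some reads thus appear to have been divided between them, and how many were misplaced is not known.

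Fgf17 (ENSMUSG00000022101.5, chr14:70636203-70642268, minus strand), which acts beside Fgf8 at the isthmus, came second at 8.99 and 13.98 TPM, a mean of 11.48 ± 3.53 TPM (SD, n = 2). It made up 17.6% and 19.8% of the ligand TPM. In both libraries it was above Fgf8, 3.33-fold in replicate 1 and 1.65-fold in replicate 2. Its counts were 386 and 538, and the exact Poisson 95% intervals were 8.115 to 9.933 and 12.82 to 15.21 TPM; such intervals cover counting error only.

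Fgf8 (ENSMUSG00000025219.9, chr19:45736798-45742915, minus strand), the central organizer signal of the isthmus, had 66 counts or 2.70 TPM in replicate 1 and 193 counts or 8.46 TPM in replicate 2. The Poisson intervals, 2.088 to 3.435 and 7.308 to 9.741 TPM, did not overlap. The mean was 5.58 ± 4.07 TPM (SD, n = 2), the widest SD relative to the mean among the 10 genes. Its share of the ligand TPM was 5.29% in replicate 1 and 12.0% in replicate 2.

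Fgf18 (ENSMUSG00000057967.8, chr11:33117430-33147400, minus strand), the closest relative of Fgf8 and Fgf17 in this set, had nearly the same mean as Fgf8 but the opposite order of the pools. Replicate 1 gave 164 counts or 6.15 TPM and replicate 2 gave 115 counts or 4.95 TPM, a mean of 5.55 ± 0.849 TPM (SD, n = 2). Its Poisson intervals, 5.245 to 7.167 and 4.087 to 5.942 TPM, overlapped. Fgf8 was 0.439 times Fgf18 in replicate 1 and 1.71 times Fgf18 in replicate 2.

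Fgf3 (ENSMUSG00000031074.10, chr7:144838083-144844436, plus strand), a ligand known for its part in inner ear induction by the hindbrain, was the lowest member at 1.35 and 2.19 TPM from 80 and 117 counts, a mean of 1.77 ± 0.594 TPM (SD, n = 2). It lies 52.1 kb before Fgf15 on chromosome 7 and the same strand, and Fgf4 lies in between. The 3 genes of this cluster were far apart in level in both pools, with Fgf15 high, Fgf3 low and Fgf4 at 0 and 0.06 TPM.

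Of the target and feedback genes, Dusp6 (ENSMUSG00000019960.7, chr10:99263231-99267489, plus strand), which encodes a phosphatase of ERK, was the highest. The pools gave 29.27 and 50.48 TPM, a mean of 39.88 ± 15.0 TPM (SD, n = 2). Etv5 (ENSMUSG00000013089.11, chr16:22381309-22439719, minus strand), an ETS transcription factor, was at 15.12 and 24.10 TPM, a mean of 19.61 ± 6.35 TPM (SD, n = 2). Both genes were higher in replicate 2, and neither gene's Poisson intervals overlapped between the pools (28.04 to 30.54 and 48.77 to 52.23 TPM for Dusp6, 14.38 to 15.89 and 23.12 to 25.11 TPM for Etv5).

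The 3 Sprouty genes, inhibitors of receptor tyrosine kinase signalling, differed widely in level. Spry2 (ENSMUSG00000022114.4, chr14:105891947-105896819, minus strand) was at 24.11 and 26.78 TPM, a mean of 25.45 ± 1.89 TPM (SD, n = 2). Spry1 (ENSMUSG00000037211.8, chr3:37639947-37644598, plus strand) was at 9.04 and 14.28 TPM, a mean of 11.66 ± 3.71 TPM (SD, n = 2). Spry4 (ENSMUSG00000024427.6, chr18:38586247-38601415, minus strand) was at 2.41 and 3.70 TPM, a mean of 3.055 ± 0.912 TPM (SD, n = 2). The order Spry2, Spry1, Spry4 was the same in both libraries, and the ranges of the 3 genes did not overlap. Spry2 had nearly equal counts in both pools, 1294 and 1289.

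By mean level the 10 genes ran Dusp6, Fgf15, Spry2, Etv5, Spry1, Fgf17, Fgf8, Fgf18, Spry4 and Fgf3. For 6 of the 9 neighbouring pairs the library values did not overlap. The pairs that could not be separated were Dusp6 and Fgf15, Spry1 and Fgf17, and Fgf8 and Fgf18. Spry2 and Etv5 were barely apart, since the lower Spry2 value was 24.11 TPM and the higher Etv5 value 24.10 TPM. In 7 of the 9 pairs the same gene was higher in both libraries; Dusp6 and Fgf15, and Fgf8 and Fgf18, changed places between the pools.

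Fgf8 transcripts are spliced in several ways at their 5′ end, which changes the start of the encoded protein. The annotation gave Fgf8 6 transcripts, of which 5 reached 10% of the Fgf8 TPM in at least 1 library. The sequences below show what distinguishes the 4 of these that share a start codon and first coding exon; each runs 5′ to 3′ from the start codon to 30 bases into the exon they share (GENCODE M21, mm10, chr19:45741617-45742684, minus strand), and capitals mark bases that Fgf8-205 lacks.
Fgf8-205: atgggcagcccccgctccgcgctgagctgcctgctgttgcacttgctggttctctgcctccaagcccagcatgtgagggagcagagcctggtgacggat
Fgf8-206: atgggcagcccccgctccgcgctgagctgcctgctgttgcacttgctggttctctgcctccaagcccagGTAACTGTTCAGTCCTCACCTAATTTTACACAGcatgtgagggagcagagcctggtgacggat
Fgf8-201: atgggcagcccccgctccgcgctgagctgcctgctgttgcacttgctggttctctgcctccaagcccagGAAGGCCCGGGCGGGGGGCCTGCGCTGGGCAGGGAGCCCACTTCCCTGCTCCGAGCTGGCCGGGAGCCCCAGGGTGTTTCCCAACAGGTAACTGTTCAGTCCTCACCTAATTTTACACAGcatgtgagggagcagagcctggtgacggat
Fgf8-202: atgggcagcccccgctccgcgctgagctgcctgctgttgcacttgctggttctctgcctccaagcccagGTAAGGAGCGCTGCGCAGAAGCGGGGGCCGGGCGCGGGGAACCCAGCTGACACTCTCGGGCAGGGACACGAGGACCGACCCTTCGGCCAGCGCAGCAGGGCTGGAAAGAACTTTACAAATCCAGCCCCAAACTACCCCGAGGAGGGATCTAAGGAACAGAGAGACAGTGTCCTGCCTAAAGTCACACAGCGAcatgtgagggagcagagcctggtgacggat
Fgf8-205 encodes 204 codons and Fgf8-206 encodes 215. They differ by 33 bases, or 11 codons, from an earlier start of the third exon of Fgf8-205 (chr19:45741647-45741679), which is the known difference between the FGF8a and FGF8b proteins, of which FGF8b is known for the stronger activity at the isthmus. Fgf8-201 (244 codons) has those bases and a cassette exon of 87 bases (chr19:45741911-45741997). Fgf8-202 (268 codons) instead has a second exon that is longer by 192 bases (chr19:45742324-45742515).

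The 33-base segment of FGF8b was in 59.3% of the Fgf8 TPM in replicate 1 and 51.4% in replicate 2, summed over its 3 carriers Fgf8-201, Fgf8-203 and Fgf8-206. The longer second exon was in 31.5% and 26.6%, and the cassette exon in 25.2% and 24.3%. Fgf8-203, a short model of 140 codons, has the 33 bases before its start codon and does not translate them. Counting the 2 transcripts with the segment in coding sequence, the share was 39.6% in replicate 1 and 51.4% in replicate 2 (36.9% and 47.2% from the posterior means). Fgf8-206 had 14.4% in replicate 1 and 33.7% in replicate 2, Fgf8-205 had 9.26% and 15.4%, and Fgf8-201 had 25.2% and 17.6%. Fgf8-203 had 19.6% in replicate 1 and was listed at 0 in replicate 2.

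The depth behind these isoform values was low. Fgf8-206 rested on estimated counts of 9.99 and 66.12. The deposited intervals of its TPM were 0.0273 to 1.0 in replicate 1 and 1.34 to 3.89 in replicate 2, which do not overlap. For Fgf8-201 they were 0.133 to 1.16 and 0.572 to 2.52, and for Fgf8-205 they were 0.012 to 0.781 and 0.429 to 2.24, which do. Fgf8 as a whole was at 2.70 and 8.46 TPM, so intervals of TPM do not show whether a share differed. The posterior mean shares of Fgf8-206 were 16.1% and 29.9%. Fgf8-203 rested on 7.56 estimated counts in replicate 1; its intervals, 7.36e-05 to 1.25 and 1.13e-05 to 1.29 TPM, overlapped almost wholly, and its posterior mean shares were 17.4% and 5.13%. The confidence level of the deposited intervals is not given in the sources used here. Shares between transcripts that have most bases in common are estimates, because most reads fit several of them.

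**Figure D2:**
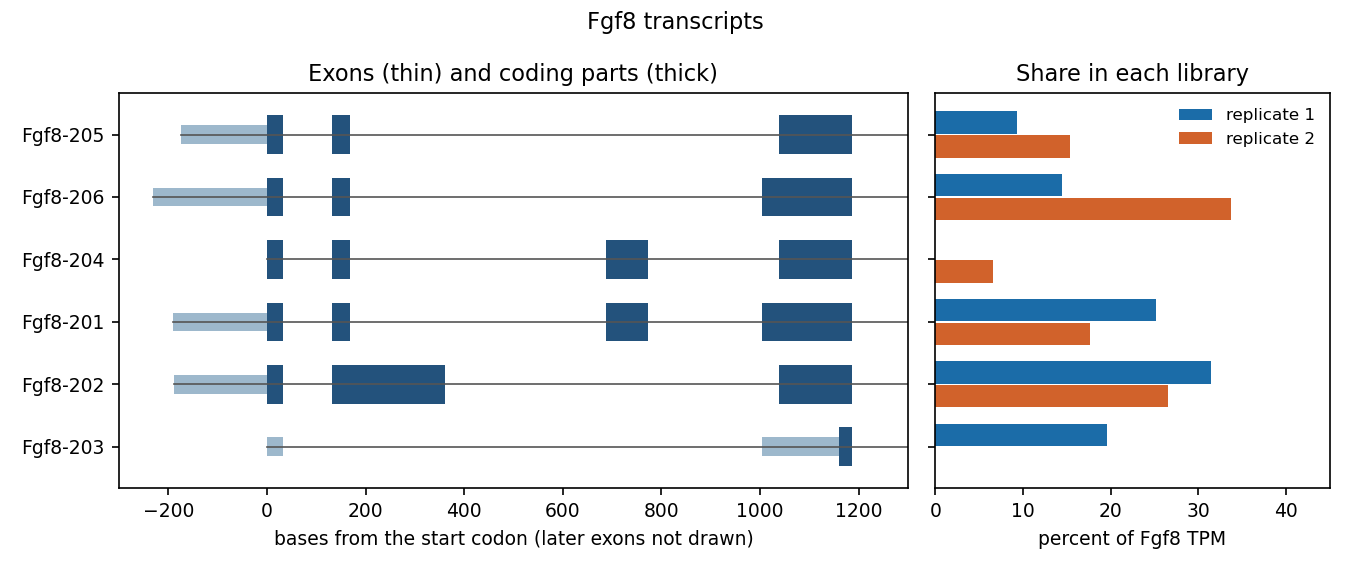
Left, exons (thin) and their coding parts (thick) at the start of the Fgf8 transcripts, by distance in bases from the start codon of the longer models; right, percent of the Fgf8 TPM in each transcript for replicates 1 and 2. The bar of Fgf8-206 goes from 14.4% to 33.7% and that of Fgf8-203 from 19.6% to 0.

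Fgf18 had 2 transcripts. The full-length Fgf18-201, of 207 codons, had 100% of the Fgf18 TPM in replicate 1 and 69.6% in replicate 2, and the shorter Fgf18-202, of 98 codons, had 0 and 30.4%. The posterior means, which spread reads over all fitting models, gave Fgf18-202 7.67% and 31.8%, and its deposited TPM intervals, 6.04e-06 to 1.34 and 0.452 to 2.7, overlapped. The start of the Fgf18-201 coding sequence is shown 5′ to 3′ because Fgf18-202 lacks the part in capitals (GENCODE M21, mm10, chr11:33134354-33147273, minus strand).
Fgf18-201: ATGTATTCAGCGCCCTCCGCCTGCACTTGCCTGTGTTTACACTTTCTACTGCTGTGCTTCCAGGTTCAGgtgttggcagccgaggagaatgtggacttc
Spry1 was divided between Spry1-201 (60.4% and 55.7%) and Spry1-203 (38.6% and 41.6%), which encode the same number of codons (313). Etv5-201 held 94.3% and 100% of Etv5, and Fgf3-201 100% of Fgf3 in both libraries. By posterior means Etv5-201 had 85.0% and 93.6%. Fgf3-201 had 87.9% and 85.7%, and the shorter Fgf3-202, of 156 codons, had 12.1% and 14.3%. The deposited TPM intervals of Fgf3-202 reached 0.521 and 0.92, so a second Fgf3 transcript is not excluded. Fgf15, Fgf17, Dusp6, Spry2 and Spry4 had a single transcript in the tables.

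The ligands fell into 2 groups by the layout of their coding exons. Fgf8-206, Fgf17-201 and Fgf18-201 each had 5 coding exons, with one of 37 bases and one of 107 bases in all 3. Fgf15 and Fgf3 had 3 coding exons with a middle one of 104 bases. In global alignments of the coding sequences, Fgf8 and Fgf17 had 68.1% identical columns, Fgf8 and Fgf18 61.1%, and Fgf17 and Fgf18 61.0%. The other 7 ligand pairs were between 45.1% and 48.8%, while 32 pairs of members from different families were between 29.8% and 48.4%. Gap columns count in these percentages, so unequal lengths hold a value down. The lowest pair, Fgf18 and Etv5, had 621 and 1530 coding bases, so the 2 ranges are not like for like. The 3 Sprouty pairs were between 56.2% and 59.7%. The levels did not follow these groups, since the highest and the lowest ligand, Fgf15 and Fgf3, were in the same one.

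Between the pools, 9 of the 10 FGF genes had a higher ratio in replicate 2, against 49.4% of the protein-coding genes whose mean TPM reached 1. Ratios are log2 of replicate 2 over replicate 1 after TMM scaling, which sets the bulk of genes to be alike. The median ratio was 0.55 for the ligands, 0.58 for the target and feedback genes and 0.56 for all 10. Over all 13006 genes the median ratio was 0, the median size of the ratio 0.21, and the 5th and 95th percentiles -0.91 and 0.55. Only Fgf8 passed 2-fold, 1 of 10, with a background of 1.03% higher in replicate 2. None of the 10 passed 2-fold higher in replicate 1, with a background of 4.15%. Genes with few counts vary more: among the 1803 genes with a summed count within 2-fold of that of Fgf8, a background chosen after the values were seen, 3.44% were past 2-fold higher in replicate 2.

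The Fgf8 log2 ratio was 1.60, a 3.02-fold difference, with an exact binomial 95% interval of 1.22 to 2.05 for counting error. It ranked 37 from the top among the 13006 genes. Fgf18 was the single member that was higher in replicate 1, at -0.43 (interval -0.79 to -0.08). The other ligands had ratios of 0.61 (0.20 to 1.06) for Fgf3, 0.55 (0.37 to 0.75) for Fgf17 and 0.29 (0.19 to 0.39) for Fgf15. Fgf8 thus differed more between the pools than any of the other 4 ligands, and its interval did not overlap theirs.

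The target and feedback genes had ratios of 0.71 (0.63 to 0.79) for Dusp6, 0.61 (0.52 to 0.71) for Etv5, 0.58 (0.43 to 0.74) for Spry1 and 0.54 (0.32 to 0.77) for Spry4. Spry2, at 0.07 (-0.04 to 0.18), was the exception, with an interval that includes 0. The intervals of Dusp6, Etv5, Spry1 and Spry4 overlapped one another, and that of Spry2 overlapped none of them. With 1 library on each side the intervals hold no biological spread.

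**Figure D3:**
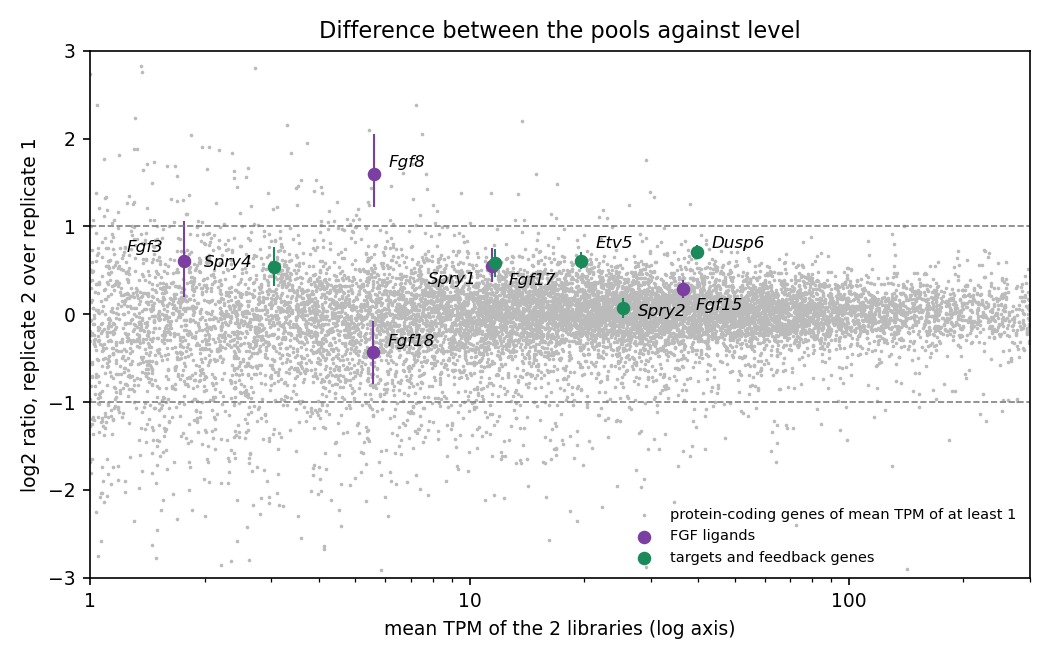
Log2 ratio of replicate 2 over replicate 1 against mean TPM (log axis) for the 10 FGF genes, with vertical lines for the 95% binomial interval, over all protein-coding genes whose mean TPM reached 1 in grey; dashed lines mark 2-fold, and the axes end at 1 and 300 TPM and at -3 and 3. Fgf8, at 1.60, lies above the upper dashed line and Fgf18, at -0.43, below 0.

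Scaling to the spike-in RNAs, which held 13.0% and 7.82% of all TPM, moved the median of all genes to 0.77. All 10 members were then above 0, Fgf18 included at 0.34, and 8 were past 2-fold. Relative to that shift of the median, 1 member was past 2-fold, as under TMM. The lists described next shift in the same way; the median of the neuronal genes, for one, went from -0.83 to -0.05.

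Some marker lists, of neighbouring tissues and of cells that the hindbrain itself holds, differed between the pools too. All 8 genes of the otic list were higher in replicate 2, with a median of 0.92. Their summed level was 68.76 and 163.9 TPM in replicates 1 and 2. Oc90 was the highest by mean level, and Dlx5 (2.05), Oc90 (1.75) and Sox10 (1.59) passed 2-fold. The list is neither specific to the otic vesicle nor complete. Pax2 (-1.36) and Pax8 (-1.29), also otic genes but placed in the isthmus list, were higher in replicate 1. Caudal Hox genes went the other way, from 46.69 to 2.29 TPM, and 6 of 6 that reached a mean TPM of 1 were past 2-fold higher in replicate 1. Neuronal genes summed to 1972 and 1240 TPM (8 of 8 lower in replicate 2, median -0.83), and cell cycle genes to 982 and 1362 TPM (6 of 6 higher, median 0.49). The surface ectoderm and pharynx list went from 102.9 to 146.1 TPM (5 of 6 genes whose mean TPM reached 1 were higher, median 0.42). Against that list's sum, Tfap2a was at 9.54 and 4.62 TPM (-1.12) and Krt5, below that mean, at 1.77 and 0.14 TPM (-3.43). No list of these had a member at 0 counts in both libraries. The part of differing tissue or cell content in the FGF ratios was not tested.

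The remaining lists moved less by their medians: progenitors went from 2246 to 1879 TPM (median -0.16), head mesenchyme from 628.2 to 537.8 TPM (median -0.19), endothelium from 115.6 to 140.9 TPM (median 0.09) and red blood cells from 12350 to 14210 TPM (median 0.26). Single genes moved further, such as Fabp7 among progenitors (684.61 and 437.41 TPM, -0.73) and Col1a1 in head mesenchyme (154.3 and 82.84 TPM, -0.98). Of the 7 genes in each of these 2 lists, 2 progenitor genes and 1 mesenchyme gene were higher in replicate 2.

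The 3 most abundant receptors were nearly level between the pools. Fgfr2 was at 76.13 and 76.93 TPM, Fgfr3 at 66.88 and 67.15 TPM and Fgfr1 at 45.78 and 47.67 TPM, with log2 ratios of -0.09, -0.11 and -0.03. The 4 detected genes of the 7 receptors and coreceptors had ratios from -0.11 to -0.03, and their list summed to 200.3 and 203.0 TPM. Fgfr4, a receptor near the limit of detection, was at 1.05 and 0.56 TPM (82 and 44 counts), with a ratio of -0.79 (interval -1.38 to -0.27). Kl and Klb, coreceptors for the endocrine FGFs, were under 0.1 TPM in both libraries (0.01 and 0 TPM for Kl, 0 and 0.01 TPM for Klb). The summed receptor level was thus above the summed ligand level in both pools.

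All 17 genes of the RAS and ERK cascade were detected, 8 higher and 9 lower in replicate 2, with a median of -0.01 and none past 2-fold. Map2k2, a kinase of ERK, was at 207.64 and 182.99 TPM, and Nras at 96.14 and 118.63 TPM.

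Further target and feedback genes of the pathway, not among the 10, had a median of 0.28: 10 were higher and 3 lower in replicate 2, all 13 were detected and none passed 2-fold (9 did, higher in replicate 2, with spike-in scaling). Dusp9, another ERK phosphatase, was at 26.30 and 41.56 TPM (0.58), and Flrt3, a membrane protein made in response to FGF, at 28.57 and 35.77 TPM (0.25). Dusp4, also a phosphatase of the family, was at 40.65 and 24.36 TPM (-0.82). The ETS factors related to Etv5 were not alike either, with Etv1 at 0.53 and Etv4 at -0.02.

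Of the other 17 genes of the FGF family, 4 were detected. Fgf13, an intracellular family member that is not secreted, was at 37.74 and 22.73 TPM, Fgf14, of the same kind, at 4.09 and 3.71 TPM, and the secreted Fgf10 at 3.09 and 4.39 TPM. Fgf11, also intracellular, was past 2-fold higher in replicate 1 (1.41 and 0.64 TPM, -1.21), a call that ended with spike-in scaling. Fgf4 (0 and 0.06 TPM), Fgf6 (0 and 0.04 TPM) and Fgf21 (0 counts in both libraries) were under 0.1 TPM. Fgf15 was therefore the highest secreted ligand measured in these libraries, across both lists.

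Genes of the isthmus and its borders did not move as 1 group. Cnpy1, a regulator of FGF receptor signalling at this border in fish, was at 37.33 and 58.84 TPM (0.59), near the ratio of the FGF targets. Gbx2, the hindbrain-side border factor, was at 33.07 and 23.05 TPM (-0.62). Pax8 (19.09 and 8.69 TPM, -1.29), Pax2 (6.57 and 2.68 TPM, -1.36) and Lmx1b (6.18 and 2.13 TPM, -1.58) were past 2-fold higher in replicate 1, opposite to Fgf8. They are transcription factors upstream of or beside Fgf8 in this region, but are not confined to it. Which cells gave their ratios was not tested. With spike-in scaling none of these 3 passed 2-fold, at -0.51, -0.58 and -0.81. Of the 10 genes whose mean TPM reached 1, 6 were higher and 4 lower in replicate 2, with a median of 0.02.

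**Figure D4:**
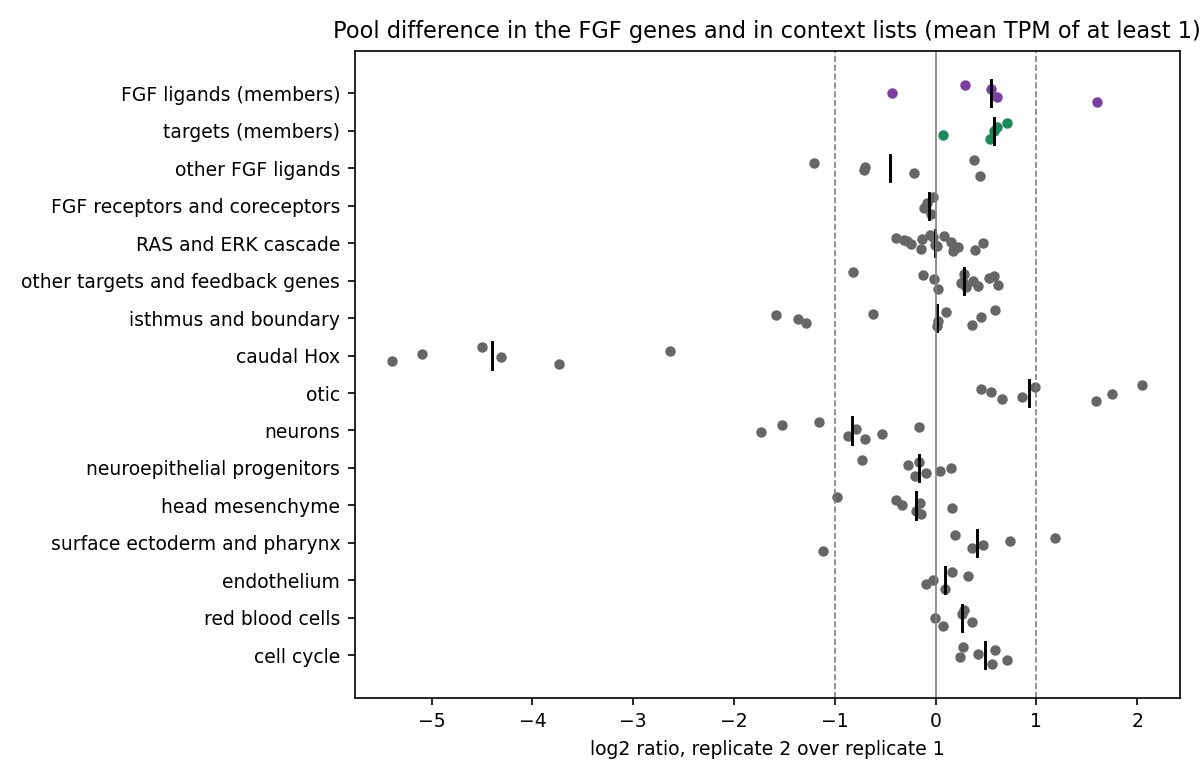
Log2 ratio of replicate 2 over replicate 1 for each gene whose mean TPM reached 1 in the FGF sets and the pathway and marker lists; dots are genes and black bars list medians. Both FGF sets have medians of 0.55 (ligands) and 0.58 (targets), the otic list is higher at 0.92 and the caudal Hox list is at -4.4.

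Over the 2 libraries a gene's pattern holds no more than its level and its ratio. Among the listed genes, those nearest to Fgf15 in log2(TPM + 0.1) were Krt18 (distance 0.17), Flrt3 (0.26) and Dusp9 (0.28). Those nearest to Dusp6 were Krt18 (0.17), Dusp9 (0.32) and Krt8 (0.36). For Fgf8, looked up after its values were seen, they were Dlx5 (0.52, at 2.74 and 12.21 TPM), Spred2 (0.80) and Otx1 (0.92).

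The ETS factors act on promoters through short GGAA-type motifs. The RefSeq promoter table (GRCm38.p6) had 7 windows for 6 of the 10 genes, and the 250 bases before the start were searched for AGGAAG on both strands (CTTCCT on the other). Of all 32851 windows 9686 (29.5%) held a match, and of the 7 windows those of Dusp6 (1 match) and Fgf3 (2 matches) did. The Dusp6 window is shown, as it belongs to the target of highest level (chr10:99262981-99263230, plus strand), with the match, which begins 210 bases before the start, in capitals.
Dusp6 promoter: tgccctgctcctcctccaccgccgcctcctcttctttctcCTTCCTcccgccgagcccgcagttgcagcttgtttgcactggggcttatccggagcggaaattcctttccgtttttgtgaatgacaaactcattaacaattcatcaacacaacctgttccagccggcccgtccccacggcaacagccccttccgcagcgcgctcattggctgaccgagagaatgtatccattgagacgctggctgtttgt
Only AGGAAG and its reverse complement were searched for and capitalised. The window holds other GGAA and TTCC stretches, which were not counted and stay in lower case. A match is a description of letters and not a measured binding site.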

How the data were processed

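RNA was extracted with mirVana and 10 ng entered each library, per the labels; the labels list a SMARTer Ultra Low kit manual among the protocols. The notes deposited with the files name the mm10 assembly and annotation release M4; aligner, quantifier and strandedness: not given in the sources used here. Per the file headers, each gene and transcript table holds an expected count, with reads of ambiguous origin divided among genes, beside TPM, a posterior mean TPM with an interval, and FPKM. Per the file headers, transcript tables give the percent of a gene in each isoform, which was recomputed here from TPM.

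GENCODE M21 supplied names for identifiers without their version (42462 of 43346 rows, 98.0%). Expected counts were rounded. Ratios are log2 CPM with a prior count of 2, TMM scaled over genes with a CPM of at least 1 in both libraries (edgeR 4.0.16, R 4.3.3), and the steps were tested on simulated data. Poisson and binomial intervals (scipy 1.17.1) cover counting error only. Coding sequences were aligned with Biopython 1.88 (match 2, mismatch -1, gap open -5, gap extension -1). Python 3.11.15, numpy 2.4.6, pandas 2.3.3 and matplotlib 3.10.9 were used.

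The members and lists were chosen with earlier results of these data known. All 10 members are named; of each pathway list, the 3 genes of highest mean TPM, those past 2-fold whose mean TPM reached 1 and those under 0.1 TPM in both libraries; further genes are named where a result refers to them and were picked after their values were seen. Of 14 further target genes, Spry3 matched no row. Some listed genes are not reported here by name. Alternatives were DESeq2 1.42.0 size factors, total count, spike-in and deposited TPM scaling, prior counts, filters, thresholds, FPKM, posterior means and each library left out.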

Additional observations from a re-analysis of the deposited data

How the results depend on the processing

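The count of members past 2-fold in replicate 2 was 1 under TMM, DESeq2 size factors, total count, deposited TPM, prior counts of 0.5 and 5 and no filter, and 8 under spike-in scaling. Spike-in scaling also moved the median ratio to 1.33 for the ligands and 1.36 for the target and feedback genes, and the Fgf18 ratio from -0.43 to 0.34. Among the pathway lists it moved the genes past 2-fold higher in replicate 1 from 3 to 0 for the isthmus. For the other FGF family genes it moved them from 1 to 0. Those higher in replicate 2 went from 0 to 3 for the isthmus and 2 for the other FGF family genes. They went from 0 to 3 for the RAS and ERK cascade and 9 for further targets. The spike-ins moved the median of all genes to 0.77 and shift most genes nearly alike. Genes with few counts shift less, such as Hoxa5 from -4.51 to -4.03, because of the prior count. Under each other scaling 9 members stayed above 0 and 1 below. At a threshold of 5 TPM, 6 of 10 members were detected in both libraries, and at an FPKM of at least 1 there were 9. With each library left out in turn, 10 members were detected and the Fgf15 share ranged from 58.2% to 62.4%; no ratio exists with 1 library. Posterior means moved the mean share of Etv5-201 to 89.3%, of Spry1-203 to 36.7% and of the Fgf8 cassette exon to 26.2%. They also moved Fgf3-201 from 100% to 87.9% in replicate 1 and 85.7% in replicate 2. No paired analysis was possible because the series has 1 group. Low counts and bases shared between transcripts both limit the isoform shares.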
